A study of Mus musculus with 7 samples.

Results

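Transcripts of the interleukin-6 (IL-6) cytokine family and of the STAT3 signalling route were examined in follicular dendritic cells (FDCs), the stromal cells that display antigen to B cells within lymphoid follicles. The 10 genes are the ligands Il6, Lif and Il11, the receptor chains Il6ra, Lifr, Osmr and Il6st, the kinase Jak1, the transcription factor Stat3 and the feedback inhibitor Socs3. They were chosen by gene symbol, and all 10 were among the 21176 genes of the deposited table. FDCs had been isolated by flow cytometric sorting; the donors were males aged 8 to 12 weeks that had not been immunized, and their popliteal lymph nodes were used. Libraries came from 4 wild-type (WT) samples and 3 samples of mice without Ngfr, which encodes p75, a receptor for neurotrophins (Ngfr KO). Each sample pooled nodes of several animals. The labels give neither the knockout allele, nor whether the loss is limited to one cell type, nor the markers of the sort.

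IL-6 family cytokines signal through receptor complexes that share gp130, the product of Il6st. IL-6 and IL-11 each bind their own alpha chain, Il6ra or Il11ra1, before gp130 joins, whereas LIF and oncostatin M use gp130 together with the chains encoded by Lifr and Osmr. JAK kinases bound to these receptors, Jak1 foremost, phosphorylate STAT3, which enters the nucleus and activates target genes, among them Socs3, whose product then blocks gp130 and the kinases. In lymph nodes, FDCs are known as a source of IL-6 during germinal centre responses.

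Values are TMM-normalised signal, that is, read counts scaled by 1 factor per library without division by gene length. Depth was 17244925 to 18873542 reads for WT and 20741770 to 21538400 for Ngfr KO, so each Ngfr KO library was deeper than each WT library. A value of 1 was worth 230 to 295 reads. The targeted gene Ngfr had values of 0.377, 0.677, 1.29 and 1.14 in WT replicates 1 to 4 and of 0.305, 0.353 and 0.184 in Ngfr KO replicates 1 to 3, and reads per gene do not show which exons were covered. All 15 FDC markers examined were detected in every library, and their summed value was 1841 to 5158 across WT libraries and 8032 to 10546 across those of Ngfr KO. Endothelial markers were detected as well, with summed values of 200 to 304 across WT libraries and 33.5 to 68.0 across those of Ngfr KO. Mitochondrial transcripts took 5.55% to 7.42% of reads across WT libraries and 3.14% to 4.97% across those of Ngfr KO.

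The upstream sequence of Socs3 is shown because its promoter is a known target of STAT3. All 10 genes matched the RefSeq promoter table (GRCm38.p6), with 12 windows, and the 250 bases before each annotated start were searched for TTCNNNGAA, the palindromic core that STAT dimers bind, which reads the same on both strands. Socs3 was the only one of the 10 with a match, in 1 of the 12 windows. Of the 32851 windows of all genes 7.02% held the letters, so 1 match among 12 windows is near the general share. The match lies 154 to 146 bases before the RefSeq start. The 150 bases from 250 to 101 before the start, chr11:117969467-117969616 on the minus strand, are given with that match in capitals.
Socs3: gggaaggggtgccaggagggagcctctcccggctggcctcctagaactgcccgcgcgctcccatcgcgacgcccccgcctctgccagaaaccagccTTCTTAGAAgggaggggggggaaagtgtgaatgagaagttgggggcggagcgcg
A match of letters is a description of the sequence and does not show that a factor binds there in these cells.

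The receptor chain genes Lifr and Il6st, the kinase gene Jak1 and the feedback inhibitor gene Socs3 were lower in Ngfr KO, whereas the receptor chain gene Osmr and Stat3 itself were not called. Lifr fell 2.09-fold, Socs3 1.98-fold, Jak1 1.70-fold and Il6st 1.67-fold between group means. The mean of Stat3 was 7.37 ± 0.71 for WT (SD, n = 4) and 7.59 ± 0.44 for Ngfr KO (SD, n = 3). The 3 ligands and Il6ra were low in both genotypes and did not pass the filter on low values. Differences were tested with limma on log2(value + 1) over the 8326 genes that reached a value of 1 in 3 or more libraries, and genes with a Benjamini-Hochberg adjusted p under 0.05 were called. Of the 6 members tested, all of which had values of at least 1 in every library, 4 were called lower (66.7%), where limma called 34.2% of all genes tested, 15.8% lower and 18.3% higher. None was called higher by limma or edgeR, nor at an unadjusted p under 0.05 in either fit. The median log2 change of the 6 was -0.72, against 0.02 over all genes tested.

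**Figure D1:**
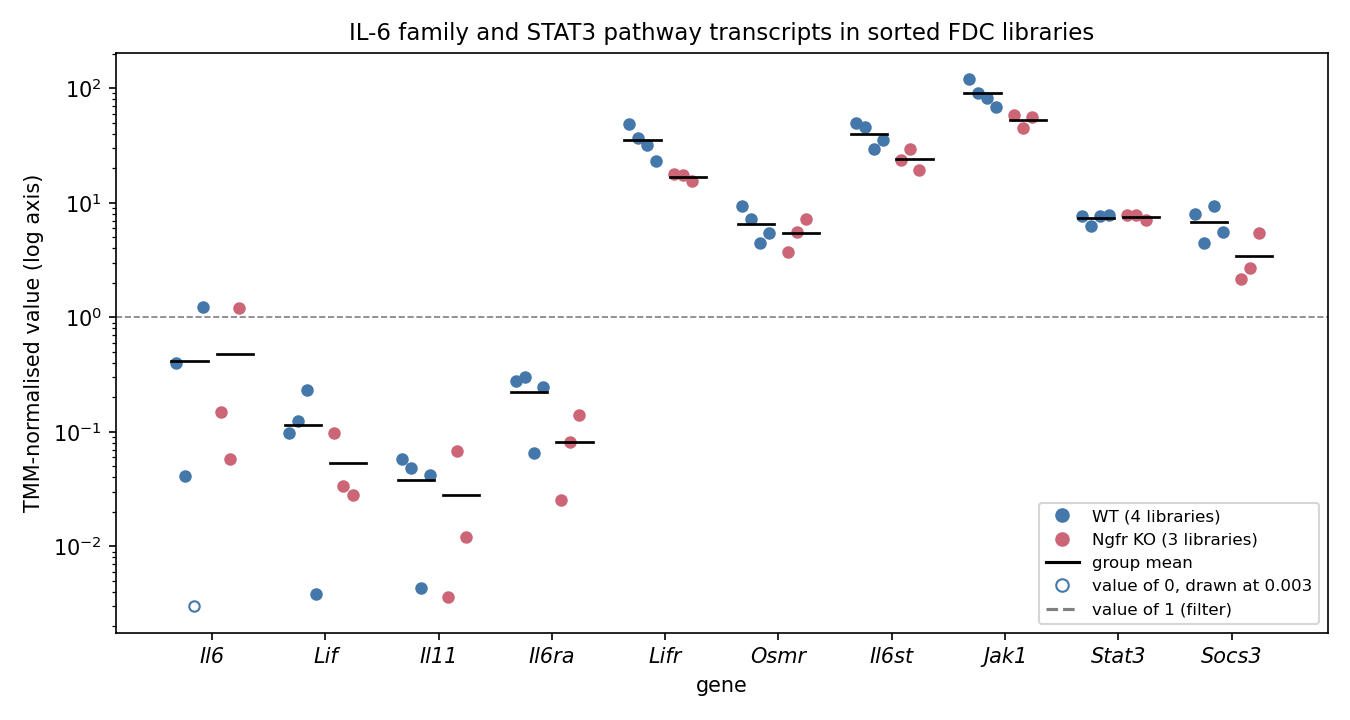
Value of each of the 10 genes in each library, on a log axis; each point is 1 library (4 WT, 3 Ngfr KO), in replicate order, black bars are group means and the dashed line marks the value of 1 used as filter. Lifr, Il6st and Jak1 have no overlap between genotypes, Stat3 lies between 6.30 and 7.87 throughout, and the 3 ligands and Il6ra stay near or below 1.

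Il6 encodes the cytokine that gives the family its name. WT replicates 1 to 4 held 103, 11, 0 and 323 Il6 reads, and Ngfr KO replicates 1 to 3 held 41, 17 and 304. These counts correspond to values of 0.401, 0.0412, 0 and 1.23 in WT and of 0.149, 0.0577 and 1.22 in Ngfr KO. WT replicate 4 and Ngfr KO replicate 3 were thus high and alike, every other library was lower, and the genotypes overlapped over the whole range. For the library with 0 reads, 3 reads would be a value of 0.0130. In the limma fit with the members under the filter added, the log2 change was 0.05 (SE 0.30, adjusted p = 0.907), and its sign turned without WT replicate 2 (-0.07), WT replicate 3 (-0.09) or Ngfr KO replicate 3 (-0.29).

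Lif, the ligand of the Lifr and gp130 complex, had 25, 33, 53 and 1 reads in the WT libraries and 27, 10 and 7 reads in the Ngfr KO libraries. Il11, a gp130 ligand made mainly by stromal and epithelial cells, had 15, 13, 1 and 11 reads in WT and 1, 20 and 3 in Ngfr KO. Both ligands overlapped between genotypes, and no difference was detectable at this depth (edgeR adjusted p = 0.593 for Lif and 0.885 for Il11). Of the other ligands of the family, Osm, Cntf and Ctf1 were listed at 0 in at least 1 library, and none of the ligands examined passed the filter.

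Il6ra, the alpha chain that binds IL-6, was covered by 71, 81, 15 and 65 reads in WT and by 7, 24 and 35 in Ngfr KO. Its values were 0.276, 0.303, 0.0652 and 0.248 in WT and 0.0254, 0.0814 and 0.140 in Ngfr KO. WT replicate 3 lay among the Ngfr KO libraries while the other WT libraries lay above them. The edgeR log2 change on the recovered reads was -1.38 (adjusted p = 0.281), and a two-sided exact permutation of the values gave p = 0.114. Only the fit with array weights put Il6ra under 0.05 (limma adjusted p = 0.0163).

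Lifr (ENSMUSG00000054263, chromosome 15, 7090614 to 7197489, plus strand, GRCm38) encodes the LIF receptor chain, which pairs with gp130. Its values were 49.1, 37.0, 31.8 and 23.3 in WT replicates 1 to 4 and 17.7, 17.5 and 15.5 in Ngfr KO replicates 1 to 3. All Ngfr KO libraries lay below all WT libraries, and they were close together while WT spread over a wide range. The mean fell from 35.3 ± 10.8 (SD, n = 4) to 16.9 ± 1.2 (SD, n = 3), a change of -0.97 on the log2 scale (limma SE 0.23, adjusted p = 0.00808). Lifr was called in all 19 alternative fits, with log2 changes of -1.15 to -0.80 and adjusted p from 1.72e-04 to 0.0401, and it was the only member that edgeR called (adjusted p = 0.0259).

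Il6st (ENSMUSG00000021756, chromosome 13, 112464070 to 112510086, plus strand) encodes gp130. Its values were 49.6, 45.9, 29.6 and 35.6 in WT and 23.6, 29.3 and 19.2 in Ngfr KO. The genotypes did not overlap, but WT replicate 3 and Ngfr KO replicate 2 were nearly level. The mean fell from 40.2 ± 9.2 (SD, n = 4) to 24.0 ± 5.1 (SD, n = 3), a change of -0.71 on the log2 scale (limma SE 0.23, adjusted p = 0.0304). The call was lost without WT replicate 1 (adjusted p = 0.0772), WT replicate 2 (0.0856), Ngfr KO replicate 1 (0.0874) or Ngfr KO replicate 3 (0.0756), and with edgeR (0.0936).

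Osmr encodes the oncostatin M receptor chain, the other partner of gp130. Its values were 9.34, 7.15, 4.46 and 5.39 in WT and 3.74, 5.51 and 7.24 in Ngfr KO. The libraries of both genotypes were intermixed. The change on the log2 scale was -0.22 (limma SE 0.24, adjusted p = 0.499), so the data do not separate no difference from a moderate fall. Array weights alone put it under 0.05 (log2 change -0.65, adjusted p = 0.00600).

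Jak1 (ENSMUSG00000028530, chromosome 4, 101152367 to 101265282, minus strand), the kinase that gp130 complexes depend on, had values of 120, 90.5, 82.8 and 68.7 in WT and of 57.8, 44.9 and 56.6 in Ngfr KO. The genotypes did not overlap, and WT replicate 1 was the highest library, as it was for Lifr, Il6st and Osmr. The mean fell from 90.4 ± 21.5 (SD, n = 4) to 53.1 ± 7.1 (SD, n = 3), a change of -0.74 on the log2 scale (limma SE 0.23, adjusted p = 0.0278). The call was lost without WT replicate 1 (adjusted p = 0.0722), WT replicate 2 (0.0689), Ngfr KO replicate 1 (0.0648) or Ngfr KO replicate 2 (0.103), and with edgeR (0.0539).

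Stat3 had values of 7.73, 6.30, 7.63 and 7.81 in WT and of 7.87, 7.81 and 7.08 in Ngfr KO. Relative to its mean it varied least of the 6 tested members, and its change on the log2 scale was 0.04 (limma SE 0.15, adjusted p = 0.854). The sign turned with quantile normalization (-0.07) and without WT replicate 2 (-0.02), the lowest WT library. RNA levels do not show how much of the protein is phosphorylated.

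Socs3 (ENSMUSG00000053113, chromosome 11, 117966079 to 117970047, minus strand) had values of 8.00, 4.49, 9.28 and 5.50 in WT and of 2.16, 2.70 and 5.47 in Ngfr KO. Its sequence printed above precedes the RefSeq start but lies within this GENCODE span. Ngfr KO replicate 3 overlapped the WT range, and the other 2 Ngfr KO libraries lay below it. The mean fell from 6.82 ± 2.21 (SD, n = 4) to 3.44 ± 1.77 (SD, n = 3), a change of -0.84 on the log2 scale (limma SE 0.27, adjusted p = 0.0302). The call was lost without WT replicate 1 (adjusted p = 0.0724), WT replicate 3 (0.0721), Ngfr KO replicate 1 (0.129) or Ngfr KO replicate 2 (0.109), and with edgeR (0.0906).

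Of the 4 calls, that of Lifr was kept in each alternative fit, whereas those of Il6st, Jak1 and Socs3 were lost with edgeR and when certain single libraries were left out. Without a filter on low values, limma called 1 of the 10 members, where it called 10% of all genes. On the recovered reads edgeR called 1 of the 10 (10%), where it called 15.2% of all genes, 6.55% lower and 8.67% higher. At an unadjusted p under 0.05 edgeR had 4 members lower. The share of all genes lower at that threshold was not computed and cannot be below 6.55%, so this count has no comparison. A two-sided exact permutation of the values gave p = 0.0571 for Lifr, Il6st and Jak1 and p = 0.114 for Socs3, where 4 against 3 libraries allow no p below 0.0286. For 3 members all Ngfr KO libraries lay below all WT libraries, and for none did they all lie above. Of all genes tested, 40.9% had no overlap, 18.3% with Ngfr KO below and 22.6% with Ngfr KO above.

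Ratios taken within a library do not depend on how libraries were scaled, and Stat3 was used as the denominator after its values had been seen, so these ratios are given without a test. The ratio of Jak1 to Stat3 was 8.80 to 15.5 across WT libraries and 5.75 to 8.00 across those of Ngfr KO. The ratio of Lifr to Stat3 was 2.99 to 6.35 across WT libraries and 2.19 to 2.25 across those of Ngfr KO, and that of Il6st to Stat3 was 3.88 to 7.29 across WT libraries and 2.71 to 3.75 across those of Ngfr KO. In these 3 ratios each Ngfr KO library lay below each WT library. Socs3 to Stat3 was 0.705 to 1.22 across WT libraries and 0.275 to 0.772 across those of Ngfr KO, and Osmr to Stat3 was 0.584 to 1.21 and 0.475 to 1.02, both with overlap.

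Levels of different genes were compared per kilobase of annotated exon (all exons of a gene merged, GENCODE M21). In WT, Jak1 stood first with a mean of 12.5 per kilobase, above the highest library of every other member. Il6st (3.62), Lifr (3.28) and Socs3 (2.36) came next and overlapped one another, with library ranges of 2.67 to 4.47, 2.16 to 4.55 and 1.55 to 3.21 per kilobase. Stat3 (0.773) and Osmr (0.544) followed, also with overlapping ranges. Il6 had a mean of 0.172 per kilobase but ranged from 0 to 0.507, which overlapped Osmr (0.368 to 0.771) as well as Lif, Il6ra and Il11, and its highest value was that of WT replicate 4. Lif (0.0261), Il6ra (0.0258) and Il11 (0.0184) had the lowest means and overlapped. In Ngfr KO the order of the 6 tested members was Jak1 (7.35), Il6st (2.16), Lifr (1.57), Socs3 (1.19), Stat3 (0.796) and Osmr (0.454). The gp130 chain and the LIF receptor chain were thus more abundant per length than the IL-6 alpha chain in both genotypes, which is a comparison of RNA alone.

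Endothelial markers fell between genotypes as Lifr, Il6st, Jak1 and Socs3 did. Of the 15 endothelial markers, 14 were tested and all 14 were called lower by limma, and none of the 15 was at 0 in any library. Eng, Emcn, Esam, Gpihbp1 and Robo4 stayed below 1 in each Ngfr KO library and passed the filter through WT alone, so the limma count is partly set by the filter. By edgeR 14 of 15 were called lower. The summed value of the 15 was 287, 200, 304 and 221 in WT replicates 1 to 4 and 68.0, 66.7 and 33.5 in Ngfr KO replicates 1 to 3. Among the WT libraries the highest Lifr, Il6st and Jak1 values were in replicate 1, while the highest endothelial sum and the highest Socs3 value were in replicate 3. The 4 WT libraries had the same order for Socs3 as for the endothelial sum and for Fabp4, its largest part in WT (117, 68.5, 147 and 98.8). Single markers differed in order. Pecam1 (18.3, 13.2, 12.7 and 10.5), Cdh5 (24.9, 17.3, 16.8 and 13.4), Eng and Erg fell from WT replicate 1 to 4, as Lifr and Jak1 did, and the other endothelial markers did not. The 3 Ngfr KO libraries had opposite orders for Socs3 and the sum, with Socs3 at 2.16, 2.70 and 5.47 in replicates 1 to 3. Of the 15 FDC markers 14 were called higher, the opposite direction to Lifr, Il6st, Jak1 and Socs3. Of the markers of fibroblastic reticular cells, another stromal type, 4 of the 9 tested were called higher and 0 lower by limma, and 2 of 11 higher and 0 lower by edgeR. Their summed values were 97.2 to 231 across WT libraries and 259 to 372 across those of Ngfr KO. Myeloid markers had sums of 3.44 to 8.10 across WT libraries and 9.05 to 41.8 across those of Ngfr KO. Only 2 of the 7 present passed the filter, which the 3 Ngfr KO libraries can meet alone, and limma called both higher. By edgeR 1 of 5 was called higher. Among pericyte or smooth muscle markers 2 of 4 were called higher by limma and 1 of 5 by edgeR. Among B cell markers 1 of 4 was called higher by limma and 0 of 8 by edgeR. Among T cell markers 0 of 4 were called by limma, 0 of 4 also at an unadjusted p under 0.05, and 0 of 8 by edgeR. Of all genes tested, limma called 18.3% higher and edgeR 8.67%. Immediate early and stress genes, which respond to cell isolation as well, had summed values of 497 to 1065 across WT libraries and 351 to 728 across those of Ngfr KO, with 4 of 15 called lower and 0 higher by limma, where it called 34.2% of all genes and 15.8% lower. edgeR called 3 of these 15 lower, where it called 15.2% of all genes and 6.55% lower. The part of these cells and genes in the falls of Lifr, Il6st, Jak1 and Socs3 was not tested, and in sorted pools fewer cells of a type and less RNA per cell cannot be told apart.

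**Figure D2:**
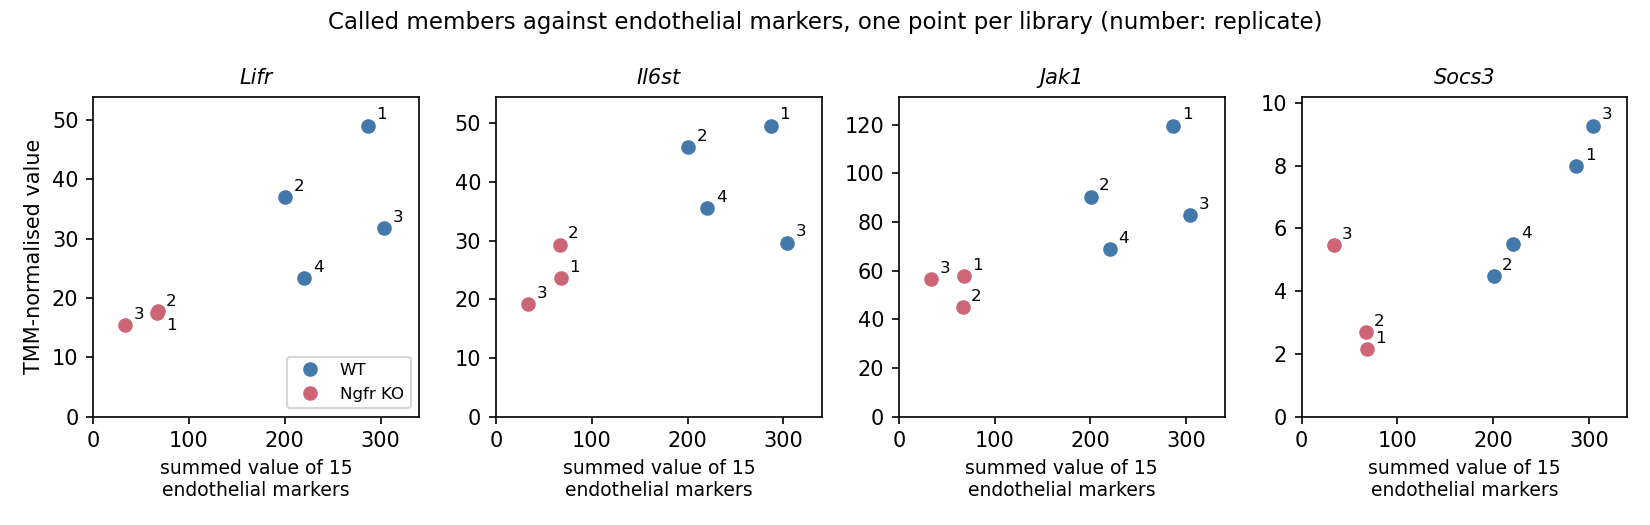
Values of Lifr, Il6st, Jak1 and Socs3 (vertical axes) against the summed value of 15 endothelial markers (horizontal axes), 1 point per library with its replicate number. The Ngfr KO libraries lie at endothelial sums of 33.5 to 68.0 and the WT libraries at 200 to 304. Within WT the order of libraries differs between the axes for Lifr, Il6st and Jak1. Fabp4 is the largest part of the sum in WT, and the single markers Pecam1, Cdh5, Eng and Erg have the WT order of Lifr and Jak1. For Socs3 the order within WT is the same on both axes, and within Ngfr KO it is reversed.

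The rest of the pathway was described from lists of 64 further genes, of which 61 were in the table and 43 were tested. Of these, 8 were called higher and 7 lower by limma, which is 34.9% and close to the 34.2% of all genes tested, and their median log2 change was -0.14. edgeR called 14 of 56 (25%), 8 higher and 6 lower, a larger share than the 15.2% of all genes; that difference was not tested. Without a filter on low values, the calls of Il11ra1, Jak3, Pias1, Pias2, Ptpn6 and Timp1 described next were lost (limma adjusted p = 0.0524 to 0.107).

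Among the family's receptors outside the members, Il11ra1, the alpha chain for IL-11, was called higher. Its values were 2.54, 3.15, 5.51 and 7.28 in WT and 8.27, 12.7 and 7.35 in Ngfr KO. The genotypes did not overlap, but WT replicate 4 was level with Ngfr KO replicate 3. The change on the log2 scale was 0.94 (limma SE 0.28, adjusted p = 0.0231), the opposite direction to Lifr and Il6st, and the call was lost with edgeR (0.0635), without WT replicate 1 (0.0589), WT replicate 2 (0.0628) or Ngfr KO replicate 2 (0.107). Il27ra, which pairs with gp130 to bind IL-27, had a change of -0.14 on the log2 scale (limma SE 0.15, adjusted p = 0.489).

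Among the other JAK and STAT genes, Jak3, the kinase of the common gamma chain receptors, fell from 2.04 ± 0.42 (SD, n = 4) to 1.12 ± 0.17 (SD, n = 3), with a change of -0.51 on the log2 scale (limma SE 0.15, adjusted p = 0.0232). The Jak3 call was lost with edgeR (0.0592), without Ngfr KO replicate 1 (0.0803) and without Ngfr KO replicate 3 (0.0625). Stat2 (-0.55), Stat5a (-0.35), Jak2 (-0.30) and Stat6 (0.13) had log2 changes that limma did not call, and the sign for Stat6 turned with array weights.

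Among the 11 tested inhibitors and phosphatases of the pathway, limma called 4 higher and 1 lower, where it called 18.3% of all genes higher and 15.8% lower. With edgeR 4 of 15 were called higher and 0 lower, against 8.67% and 6.55% of all genes. Ptpn1 and Ptpn2 encode phosphatases that act on JAK kinases and STATs. Ptpn2 had values of 4.86, 5.34, 5.91 and 4.98 in WT and of 9.92, 9.22 and 10.9 in Ngfr KO, a change of 0.81 on the log2 scale (limma SE 0.15, adjusted p = 0.00237). Ptpn1 had values of 3.82 to 6.31 in WT and of 9.10, 12.0 and 10.2 in Ngfr KO, a change of 0.89 on the log2 scale (limma SE 0.19, adjusted p = 0.00414). In both the Ngfr KO libraries lay well above all WT libraries, and both were called in all 18 alternative fits that tested them.

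Ptpn6, the phosphatase SHP-1 that is abundant in blood cells, had values of 0.848 to 1.55 in WT and of 1.37 to 3.40 in Ngfr KO, which overlapped (log2 change 0.69, limma adjusted p = 0.0248; not called without WT replicate 3, 0.0538, Ngfr KO replicate 1, 0.0881, or Ngfr KO replicate 2, 0.120). Pias1, an inhibitor of STAT binding to DNA, had a log2 change of 0.52 (limma adjusted p = 0.0323) and its relative Pias2 one of -0.48 (limma adjusted p = 0.0419). Pias1 was no longer called in 5 of the 7 fits that left out 1 library each, by adjusted p of up to 0.137, and Pias2 in 6 of the 7, by up to 0.106. Socs2, Socs1, Ptpn11 and Socs4 had log2 changes of -0.32, 0.34, 0.06 and -0.06 that were not called. Socs3 was thus the only tested gene of the SOCS family that limma called, and the difference between Socs3 and the others was not tested.

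Of 20 STAT3 target genes tested, limma called 5 lower and 2 higher and did not call 13, a share near the 34.2% of all genes, and their median log2 change was -0.14, against 0.02 over all genes. edgeR called 6 lower and 3 higher of 25, where it called 15.2% of all genes. Cebpd, a transcription factor gene induced by IL-6, had values of 11.7, 12.3, 25.9 and 13.5 in WT and of 5.06, 6.37 and 7.07 in Ngfr KO, and WT replicate 3 stood far above the other libraries. Its change on the log2 scale was -1.17 (limma SE 0.25, adjusted p = 0.00461), and without WT replicate 3 it was -0.92 and still called. Pim3, a survival kinase, fell 2.86-fold, with values of 5.50, 4.11, 5.72 and 5.59 in WT and of 1.37, 2.59 and 1.52 in Ngfr KO. Mcl1, an inhibitor of apoptosis, fell 2.45-fold, and Fosl2, an AP-1 subunit, fell 2.65-fold. Vegfa, a growth factor for blood vessels, fell 1.77-fold. In all 5 of these genes the genotypes did not overlap, with limma adjusted p from 0.00107 to 0.00712, and each was called in every alternative fit that tested it.

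Il4ra, the receptor chain for IL-4 and IL-13, went the other way, with values of 3.41, 4.59, 5.55 and 6.43 in WT and of 12.2, 13.4 and 14.5 in Ngfr KO (log2 change 1.28, SE 0.19, limma adjusted p = 8.73e-04). Timp1, an inhibitor of matrix proteases, had values of 1.40 to 2.06 in WT and of 2.60 to 8.75 in Ngfr KO (log2 change 1.15, SE 0.27, limma adjusted p = 0.00719). Neither gene overlapped between genotypes. The more abundant targets Fos, Junb, Lrg1 and Serpina3n had log2 changes of -0.44, -0.26, -0.09 and 0.44 and were not called. Fos and Junb belong to the immediate early list as well. Among targets under the filter, edgeR called Cebpb lower (log2 change -1.41, adjusted p = 0.0434) and the cell division gene Birc5 higher (log2 change 3.27, adjusted p = 0.0130), both named after their values were seen. The proteases Adam10 and Adam17, which can shed the IL-6 receptor, had log2 changes of -0.14 and -0.22 (limma adjusted p = 0.594 and 0.345).

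**Figure D3:**
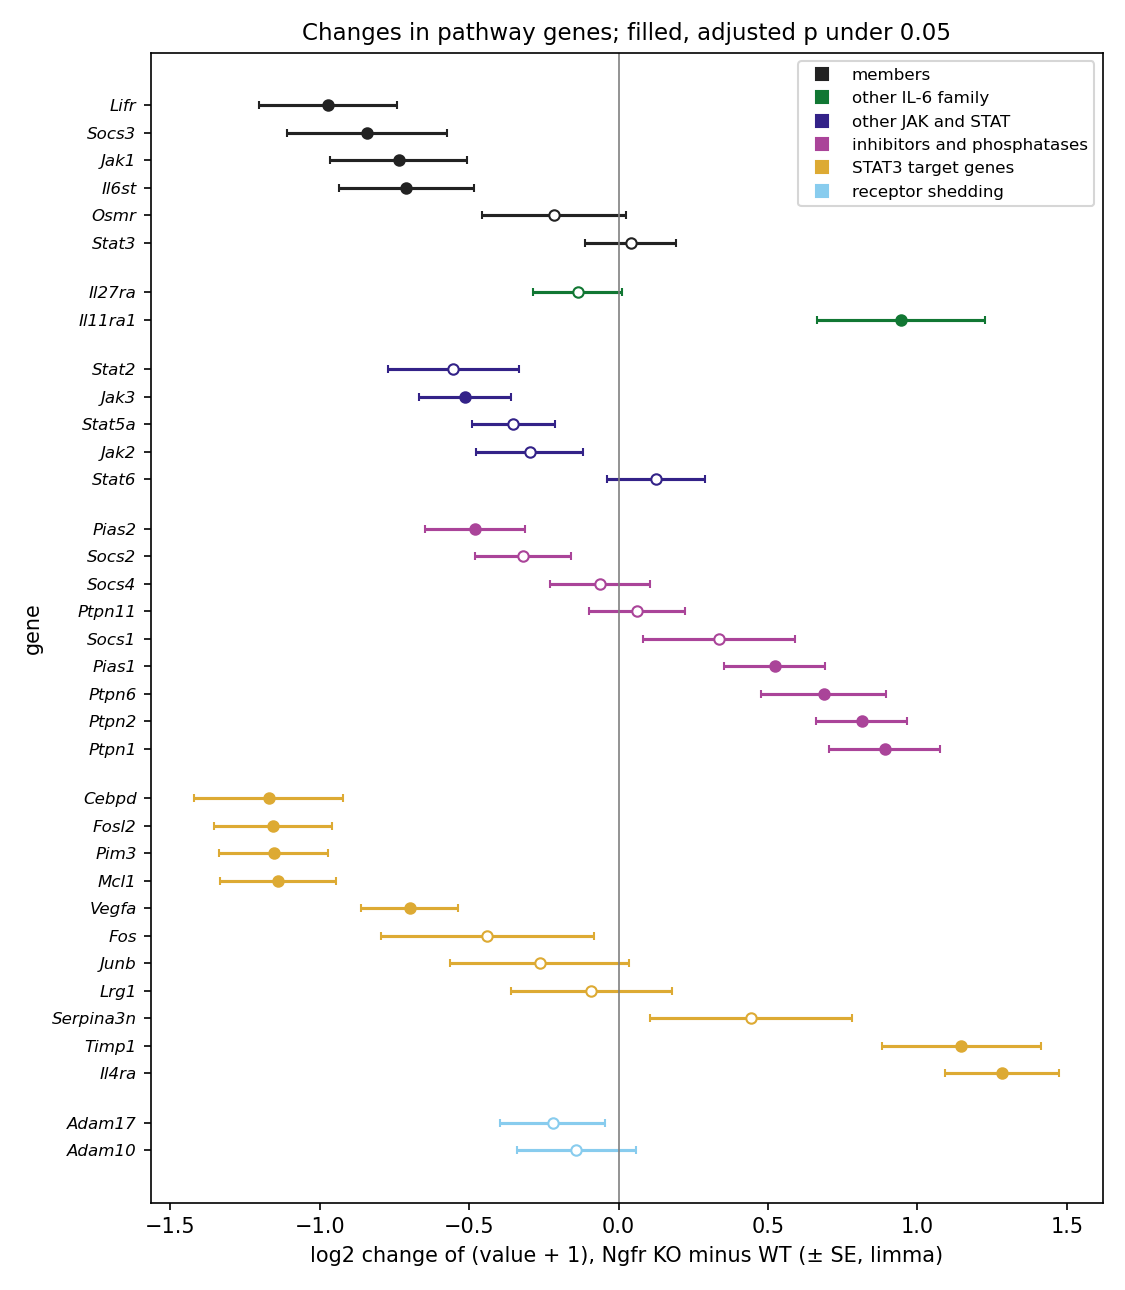
Log2 change of (value + 1), Ngfr KO minus WT, with its standard error from limma, for the 6 tested members and the named genes of the 5 pathway lists; filled points have an adjusted p under 0.05. The receptor chain and kinase genes Lifr, Il6st and Jak1 lie to the left with Socs3, Stat3 lies at 0.04, and the STAT3 targets lie on both sides, from -1.17 (Cebpd) to 1.28 (Il4ra).

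The tested genes whose profiles over the 7 libraries were most like those of 3 members are given as a description, since all 7 libraries share the split between genotypes. For Socs3 they included Spryd7 and Ube2e1 (Pearson's r 0.966 and 0.965 on log2(value + 1)). For Il6st they were Zbtb37, Ldb1 and Sh3tc1 (r 0.986, 0.982 and 0.976). For Stat3 they were Eef1a1, Dusp12 and Uchl5 (r 0.968, 0.912 and 0.885), of which none was called. Each of the 5 genes named here for Socs3 or Il6st was lower in each Ngfr KO library than in each WT library, as were 18.3% of all genes tested. They were picked for likeness to members that were lower in Ngfr KO, so this separation is not a separate result.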

How the data were processed

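RNA of sorted FDCs from 4 WT and 3 Ngfr KO samples was sequenced after SMART-Seq v4 amplification and Nextera XT library preparation, per the labels' protocols. The authors deposited 1 table of signal per gene, which the file calls TMM. bcl2fastq 2.20.0.422 and the build mm10 are named in the submitters' processing notes; the aligner, counter and annotation are not given in the sources used here. In every library 100% of values were whole multiples of 1 step (tolerance 0.01 reads), so reads were recovered. Genes with values of at least 1 in at least 3 libraries were tested with limma 3.58.1 in R 4.3.3 (eBayes with trend) on log2(value + 1), a scale that understates changes of low genes. Members under the filter and Ngfr were added to the same fit for their own statistics. edgeR 4.0.16 (quasi-likelihood, filterByExpr) was run on recovered reads. The floor of 3 reads covers counting error only, since no molecular identifiers are mentioned. The SDs and limma SEs rest on the spread between libraries. Positions are from GENCODE M21 (21137 identifiers matched, 39 did not); 5 listed genes are not analysed here.

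Members and lists were chosen with earlier results of these data known. Named genes are the members, the called genes of the pathway lists, up to 4 uncalled genes per list with the highest means, and the 3 genes most correlated with Socs3, Stat3 and Il6st. Some genes that this rule selects are not reported here. Alternatives were other pseudocounts, filters, scalings, variance models, weights per library, a block by replicate number, edgeR, thinned reads and leaving out each library. On simulated data with 200 genes changed 4-fold, limma recovered 99.5% of those tested among 8292 genes and 9.13% of its 208 calls were unchanged genes; edgeR recovered 95.5% among 16462 genes, with 5.45% of its 202 calls unchanged. The called members changed less, by 1.67-fold (Il6st) to 2.09-fold (Lifr). The simulation does not show how many changes of that size would be recovered.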

Additional observations from a re-analysis of the deposited data

Results flagged for a closer look

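In the 40 genes described, the 4 WT libraries were searched for one that stood apart, its gap to the nearest library exceeding 0.829 of the range; chance gives about 1 in 20 and 3 were found. Stat3 was 6.30 in WT replicate 2, against 7.63 to 7.81 in the other WT libraries. Pim3 was 4.11 in the same library, against 5.50 to 5.72. Cebpd was 25.9 in WT replicate 3, against 11.7 to 13.5.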

How the results depend on the processing

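The count of 2844 called genes became 535 with a value of at least 10 required and 4881 with array weights, and was 1614 to 3006 when 1 library was left out. The count of 4 called members became 1 without a filter and 1 with edgeR, and was 1 to 4 with 1 library left out; the other 10 alternatives gave 3 to 5. The 15 called pathway genes became 3 with the stricter filter, which tested 10 pathway genes, and were 12 to 16 with 1 library left out. With the replicate number as a block, 2717 genes, 4 members and 16 pathway genes were called. Deviations of same-numbered libraries correlated at 0.298, -0.059 and -0.011 across genes, and those of differently numbered libraries at -0.20 to 0.11. The labels do not say whether the numbers pair the samples, and so few correlations cannot settle it. Signs turned only in uncalled genes: Stat3 (-0.074, quantile normalization), Stat6 (-0.11) and Lrg1 (0.42) with array weights. With 1 library left out the log2 changes ranged from -0.29 to 0.30 for Il6, -0.043 to 0.0020 for Il11, -0.024 to 0.084 for Stat3, -0.01 to 0.15 for Ptpn11, -0.18 to 0.026 for Socs4 and -0.29 to 0.11 for Lrg1. The causes were not tested. Depth limits Il6ra, Lif and Il11, which had at most 81 reads in any library; Il6 ranged from 0 to 323 reads between libraries.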
